A study of Homo sapiens with 3 samples.

Results

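The genes of 10 AP-1 transcription factors were followed through H3K4me3 and H3K4me1 peak lists of ALL-SIL, a human line grown from a T-cell acute lymphoblastic leukaemia. The members were the Jun genes JUN, JUNB and JUND, the Fos genes FOS, FOSB, FOSL1 and FOSL2, and the smaller relatives BATF, BATF3 and ATF3, 10 of 20037 protein-coding genes. They were chosen by family and not by their peaks, though with earlier results of these data known. A window ran from 50 kb before to 50 kb beyond each RefSeq span in GRCh38, and every peak that touched it was taken. The 10 windows held 33 of the 11100 H3K4me3 peaks and 121 of the 62087 H3K4me1 peaks. ATF3 and BATF3, 65.6 kb apart on chromosome 1, shared 2 of these H3K4me1 peaks, and no other members shared one.

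The study had 3 samples, all from this 1 line, for which the labels name no treatment and no change of genotype: an H3K4me1 ChIP, an H3K4me3 ChIP and input DNA. Each was 1 library, with 34813455 filtered tags for H3K4me1, 30823016 for H3K4me3 and 18859011 for the input, so no value below has a replicate error and none carries a test. As a check of the label, an H3K4me3 peak lay at 9 of 9 T cell marker genes, 1 of 5 B cell markers and 0 of 12 myeloid, erythroid and liver markers, and an H3K4me1 peak at 9, 5 and 2 of the same genes.

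AP-1 is a family of dimers of basic leucine zipper proteins that bind the TRE sequence and the related CRE. Jun proteins pair with one another or with a Fos protein, while Fos proteins need a Jun partner. BATF proteins lack a strong activation domain, pair with Jun proteins and, in lymphocytes, bind together with interferon regulatory factors. JUN, FOS, FOSB, JUNB and ATF3 are classic early response genes that growth factors, stress or receptor signals switch on within minutes. H3K4me3 marks promoters that are active or ready for use, and H3K4me1 marks enhancers and the shoulders of promoters.

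The promoters differ in sequence as well as in marking, and 6 are shown because the account turns on their starts: those of JUND and JUN, with the longest H3K4me3, of FOS and FOSB, where the marks were nested, of BATF, with the most H3K4me1, and of ATF3, whose listed starts had no H3K4me3. Each is the 250 bases before the start, 5′ to 3′, from the RefSeq promoter table (GRCh38.p14), which had entries for 8 of the 10 genes, none for FOSL1 or BATF3. Capitals mark, on either strand, the CCAAT box, the TATA motif TATAAA, the CRE with its letters TGACGTCA, and the site TGACATCA.
JUND, chr19:18281623-18281872, minus strand: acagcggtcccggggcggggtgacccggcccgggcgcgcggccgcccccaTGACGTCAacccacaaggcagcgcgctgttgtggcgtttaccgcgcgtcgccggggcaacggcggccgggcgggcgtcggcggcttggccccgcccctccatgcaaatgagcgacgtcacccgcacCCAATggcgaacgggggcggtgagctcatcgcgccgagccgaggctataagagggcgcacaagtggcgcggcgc
JUN, chr1:58784048-58784297, minus strand: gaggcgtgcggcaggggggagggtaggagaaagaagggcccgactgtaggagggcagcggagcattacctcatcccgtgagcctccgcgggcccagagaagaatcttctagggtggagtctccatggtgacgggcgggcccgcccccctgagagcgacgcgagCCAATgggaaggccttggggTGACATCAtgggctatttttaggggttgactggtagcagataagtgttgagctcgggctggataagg
FOS, chr14:75278578-75278827, plus strand: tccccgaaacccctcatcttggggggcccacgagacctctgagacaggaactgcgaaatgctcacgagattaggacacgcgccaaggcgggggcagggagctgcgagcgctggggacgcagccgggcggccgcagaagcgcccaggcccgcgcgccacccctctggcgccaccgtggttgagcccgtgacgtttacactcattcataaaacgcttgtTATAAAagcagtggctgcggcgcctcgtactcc
FOSB, chr19:45467746-45467995, plus strand: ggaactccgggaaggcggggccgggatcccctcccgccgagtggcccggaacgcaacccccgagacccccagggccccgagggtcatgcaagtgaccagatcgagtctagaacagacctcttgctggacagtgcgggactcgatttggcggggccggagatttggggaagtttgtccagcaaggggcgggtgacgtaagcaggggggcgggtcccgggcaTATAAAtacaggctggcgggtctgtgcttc
BATF, chr14:75522219-75522468, plus strand: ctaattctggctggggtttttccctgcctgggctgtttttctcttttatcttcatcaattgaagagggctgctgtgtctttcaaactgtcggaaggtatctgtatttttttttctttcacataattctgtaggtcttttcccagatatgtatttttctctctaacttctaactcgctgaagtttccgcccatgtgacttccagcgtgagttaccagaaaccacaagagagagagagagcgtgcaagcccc
ATF3, the first listed start, chr1:212565157-212565406, plus strand: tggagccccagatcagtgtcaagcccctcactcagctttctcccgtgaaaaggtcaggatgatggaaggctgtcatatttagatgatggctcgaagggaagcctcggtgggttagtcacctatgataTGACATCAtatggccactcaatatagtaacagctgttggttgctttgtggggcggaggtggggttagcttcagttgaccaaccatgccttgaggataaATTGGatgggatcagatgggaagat

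The 3 Jun promoters each held a CCAAT box, at -87 to -83 in JUN, -67 to -63 in JUNB and -74 to -70 in JUND, counted from the start. A CCAAT match on either strand was in 34.7% of the 22199 promoter windows of protein-coding genes, which ran from 250 bases before to 50 after the start. The first ATF3 start had one too, on the other strand at -25 to -21. A TATAAA lay close to the start of JUNB (-31 to -26), FOS (-33 to -28) and FOSB (-30 to -25), further out at the second ATF3 start (-230 to -225), and anywhere in 9.47% of windows. The CRE was at -200 to -193 in JUND (2.26% of windows), and the TRE (TGAGTCA, or TGACTCA on the other strand) was in the FOSL2 window alone of the 9 member windows, at 5 to 11 (4.01%). TGACATCA, chosen after the sequences were seen, was at -67 to -60 in JUN and -123 to -116 in ATF3 (2.13%). The GC box GGGCGG was in the windows of 7 of the 8 genes, JUNB being the exception, and in 56.3% of all windows, and the CArG box was in no member window and in 1.25% of all. Only full matches inside these windows were counted. A site more than 250 bases before the start, or a variant with other letters, was not looked for, so no gene is shown to lack a site.

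All members but BATF3 had peaks of both marks in the gene or within 1 kb of it, which need not be at the start. At FOSL1, which has no listed start, the H3K4me3 peak held the start of the neighbour CCDC85B. An H3K4me3 peak lay in the span of the gene or within 1 kb of it at 9 of 10 members, where 53.4% of protein-coding genes had one, and an H3K4me1 peak likewise at 9 of 10, where 63.4% had one. Both marks were at 9 of 10 members and at 49.5% of protein-coding genes. The family was ordered differently by the 2 marks. H3K4me3 was longest at the Jun genes, and H3K4me1 covered the largest share of the window at BATF and FOSL2. The place of FOSL2 rested on weak peaks. Its load of 37.1% was 6.10% in the upper part of the list by q, where JUNB had 18.4%, and 0.536% where −log10 q had to reach 5. The load of BATF, 51.6%, fell too, to 36.0% in the upper part, where it stayed first. At the q limit of 5 it was 3.69%, below JUNB with 7.18%, FOSL1 with 6.97% and BATF3 with 4.77%.

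By H3K4me3 length, which counts the bases of H3K4me3 peaks in the span and 1 kb on each side, JUND had 3764 bp, JUN 3302 bp, JUNB 2727 bp and FOSL2 2412 bp. ATF3 with 1842 bp, BATF with 1716 bp and FOSB with 1479 bp came next, and FOSL1 with 1271 bp, FOS with 733 bp and BATF3 with 0 bp last. The median over the 10 members was 1779 bp, against 643 bp over all protein-coding genes and 1595 bp over the 10701 genes with the mark. The lengths of JUND, JUN, JUNB and FOSL2 were above the upper quartile of genes with the mark (2134 bp), 4 of the 9 members with the mark beside 25% of those genes, while FOS was under the lower quartile (1143 bp).

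By H3K4me1 load, the percent of the window covered by H3K4me1 peaks, BATF had 51.6%, FOSL2 37.1%, FOSL1 26.2% and FOSB 22.99%. JUND followed with 22.4%, FOS with 21.2%, JUNB with 19.7% and JUN with 15.3%, and BATF3 and ATF3 had 7.33% and 7.29%. The median load was 21.8% over the members and 3.98% over all protein-coding genes. Loads of 8 members were above the upper quartile of all genes (10.7%), which 25% of genes are by construction. BATF stood at percentile 99.7 of protein-coding genes for load, FOSL2 at 98.4, and BATF3 and ATF3 at 65.2 and 65.0. FOSB, JUND, FOS and JUNB lay close together, and with 1 library there is no error by which such neighbours in the order could be told apart.

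**Figure D1:**
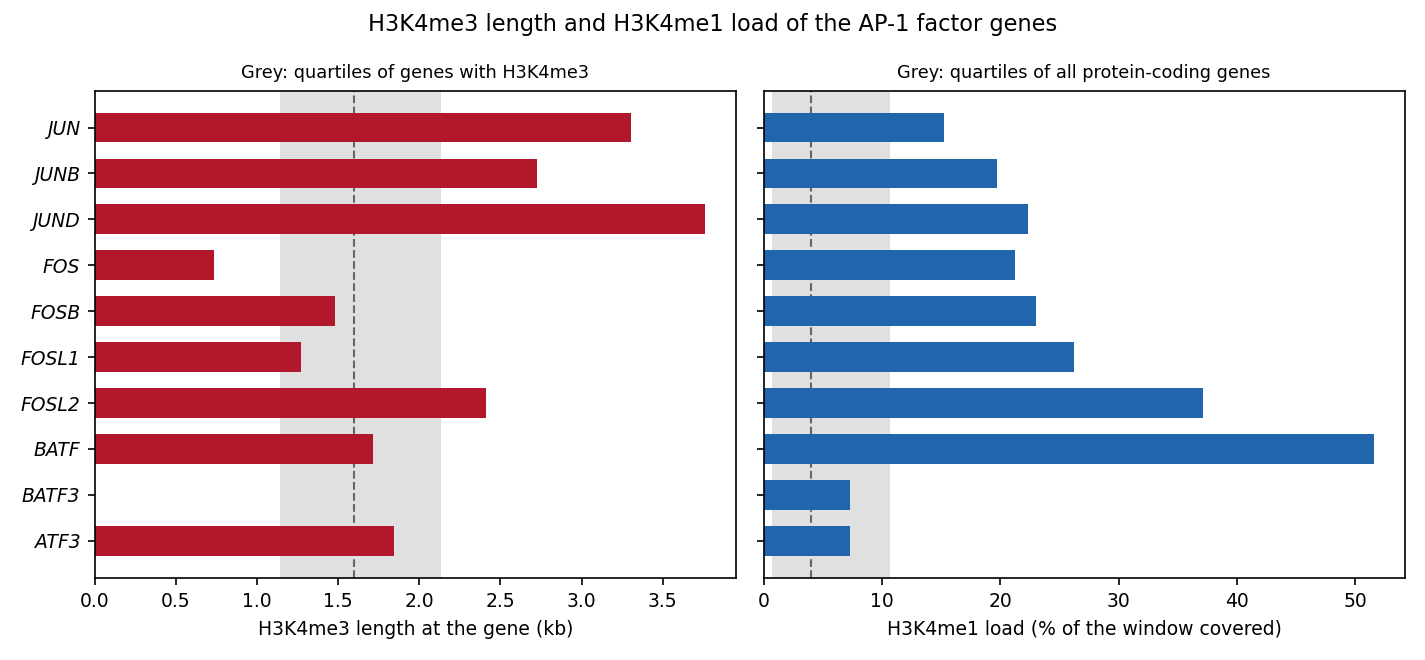
H3K4me3 length at each gene in kb (left, red bars) and H3K4me1 load in percent of the window (right, blue bars) for the 10 members. The grey band spans the quartiles and the dashed line marks the median, over the 10701 genes with H3K4me3 on the left and all 20037 protein-coding genes on the right. JUND and JUN lead on the left and BATF and FOSL2 on the right, and BATF3 has no H3K4me3.

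JUND, the Jun gene that is expressed most steadily in resting cells, lay on chromosome 19 from 18279694 to 18281622. Its H3K4me3 peak covered 100% of the gene and reached from -977 to 2786 bp of the start, 3764 bp long and longer than 96.6% of the H3K4me3 list. Its fold over the local background, the authors' value, was 4.27, near the list median of 4.53. The 3 further H3K4me3 peaks in its window all stood at ends of other genes, among them LSM4. The 12 H3K4me1 peaks were shallow, with a median fold of 1.81 against 2.37 in the list. The local background at these peaks, computed here as pileup over fold and not given by the caller, had a median of 4.53. It was 3.42 for H3K4me1 peaks of chromosome 19 and 2.48 in the list, and its part in the low folds was not tested.

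JUN, the founding member of the family, lay on chromosome 1 from 58780791 to 58784047. A peak of 3346 bp ran from -1044 to 2301 bp of its start, longer than 94.98% of the list but at a fold of 2.97, above only 15.3% of it. An H3K4me1 peak of 532 bp lay wholly inside that H3K4me3 peak, an arrangement found for 0.304% of H3K4me1 peaks in the list and for 2 of the 121 in the windows. JUN had the lowest load of the Jun genes, and 13.2 of its 15.7 kb of H3K4me1 lay 20 to 50 kb from the gene. The longest stretch there, 6477 bp, ran from 26549 to 33025 bp downstream of the start.

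JUNB, which can replace or oppose JUN depending on the promoter, lay on chromosome 19 from 12791486 to 12793315, with its start inside the span of HOOK2. A peak of 2658 bp from 29 to 2686 bp covered 98.4% of the gene at a fold of 4.79, and a listed start of HOOK2 lay inside the same peak, 864 bp beyond the start of JUNB. A second, very sharp peak of 315 bp from -1246 to -932 bp had a fold of 10.6, above 98.5% of the list. Of the 8 H3K4me3 peaks in the window, the most of any member, 3 more lay further inside HOOK2, at folds of 4.49, 5.75 and 9.09. The other 3 lay at the shared ends of PRDX2 and THSD8, at RNASEH2A and inside RTBDN. H3K4me1 crowded close to JUNB: it covered 66.2% of the 5 kb on each side of the gene, 38.7% from 5 to 20 kb and 3.1% from 20 to 50 kb.

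FOS, the gene for which the Fos proteins are named, lay on chromosome 14 from 75278828 to 75282230. It had the shortest H3K4me3 of the marked members, a peak of 733 bp from -265 to 467 bp, longer than 15.9% of the list, but at a fold of 6.08 that was above 76.2% of it. The peak sat wholly inside an H3K4me1 peak of 2268 bp that ran from -1428 to 839 bp, at a fold of 3.53. The window held no other protein-coding gene, and 10 of its 12 H3K4me1 peaks lay between genes. The strongest of those 10 was 2640 bp long, from -20522 to -17883 bp, at a fold of 3.36.

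FOSB, which is induced with FOS and gives a truncated form by splicing, lay on chromosome 19 from 45467996 to 45475179. Its H3K4me3 peak of 1479 bp did not cover the start: it began 494 bp downstream and ended at 1972 bp, at a fold of 4.25. Like that of FOS it lay wholly inside an H3K4me1 peak, of 2892 bp from -289 to 2602 bp, at a fold of 2.14. Of the other 6 H3K4me3 peaks in the window, 3 lay in or at ERCC1, 1 at RTN2, 1 at VASP and 1 between genes. The window had 17 H3K4me1 peaks, as many as that of BATF, but they covered 24.6 kb where those of BATF covered 64.2 kb.

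FOSL1, which encodes FRA1, lay on chromosome 11 from 65892049 to 65900545. Its H3K4me3 length came from 1 peak of 1674 bp (65890646 to 65892319, fold 4.67) that holds the listed start of the neighbour CCDC85B, 1376 bp before the low-coordinate end of FOSL1, and entered the gene by 271 bp. No H3K4me3 peak lay at the high-coordinate end, where an H3K4me1 peak of 3155 bp did. No start was listed for FOSL1, so which of its ends is the start was not determined here. The window held 5 H3K4me3 peaks with 10.2 kb in all, the most by length of the 10 windows, and the other 4 lay at ends of CFL1, MUS81, EFEMP2, FIBP, C11orf68 and DRAP1. The steepest H3K4me1 peak of all 10 windows was also here, 1260 bp at DRAP1 with a fold of 6.19, above 98.7% of the list.

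FOSL2, which encodes FRA2, lay on chromosome 2 from 28392858 to 28417317 with 1 H3K4me3 peak in its whole window, 2412 bp from -851 to 1560 bp at a fold of 4.87. Its H3K4me1 came in long pieces: 11882 bp beginning 3414 bp beyond the gene (28420731 to 28432612), 8807 bp and 4818 bp inside the gene, and 5945 bp from -14871 to -8927 bp of the start. The piece of 11882 bp was the longest of the 121 peaks and longer than 98.9% of the list, at an ordinary fold of 2.25. Inside the gene 57.5% of the bases were covered.

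BATF, a partner of Jun proteins in lymphocytes, lay on chromosome 14 from 75522469 to 75546992. Its window had the most H3K4me1 and its start a weak H3K4me3 peak: 1716 bp from -391 to 1324 bp, at a fold of 2.30, above only 3.91% of the list. An H3K4me1 peak of 8819 bp led up to 148 bp before the start and the next one of 4717 bp began 1376 bp after it. H3K4me1 covered 63.4% of the gene, 81.9% of the 5 kb on each side, 49.2% from 5 to 20 kb and 42.9% from 20 to 50 kb. It led the family in each of these zones but that from 5 to 20 kb, where FOSL2 had 57.3%. The longest of the 17 peaks, 10773 bp (75539131 to 75549903), ran across the far end of the gene, and 7 lay between genes. Their median fold, 2.49, was close to that of the list. The 1 other H3K4me3 peak in the window, 780 bp at FLVCR2, had a fold of 1.90.

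BATF3, a factor best known from dendritic cells and also present in activated T cells, lay on chromosome 1 from 212686417 to 212699840 and had no peak of either mark in the gene or within 1 kb. Its window had no H3K4me3 peak and 6 H3K4me1 peaks. These were few but comparatively steep, with folds from 2.79 to 5.01 and a median of 3.80, the highest of the 10 windows. The nearest, 1074 bp at a fold of 4.81, ended at -2448 bp from the low-coordinate end.

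ATF3, a stress-induced member that often represses, lay on chromosome 1 from 212565407 to 212620777. Neither listed start was in a peak of either mark: H3K4me3 was 30.7 kb from the one and 4.87 kb from the other. Further starts of ATF3 were not looked at, so the H3K4me3 inside the gene may lie at one that is not listed. The marked stretch lay inside the gene, an H3K4me3 peak of 1505 bp (212608646 to 212610150) at a fold of 3.27, 43239 bp from the first listed start, and a weak one of 337 bp, 30740 bp from it, at a fold of 1.62, above only 0.189% of the list. The 5 H3K4me1 peaks inside the gene were between 328 and 1507 bp long, and none lay within 50 kb on the low-coordinate side.

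**Figure D2:**
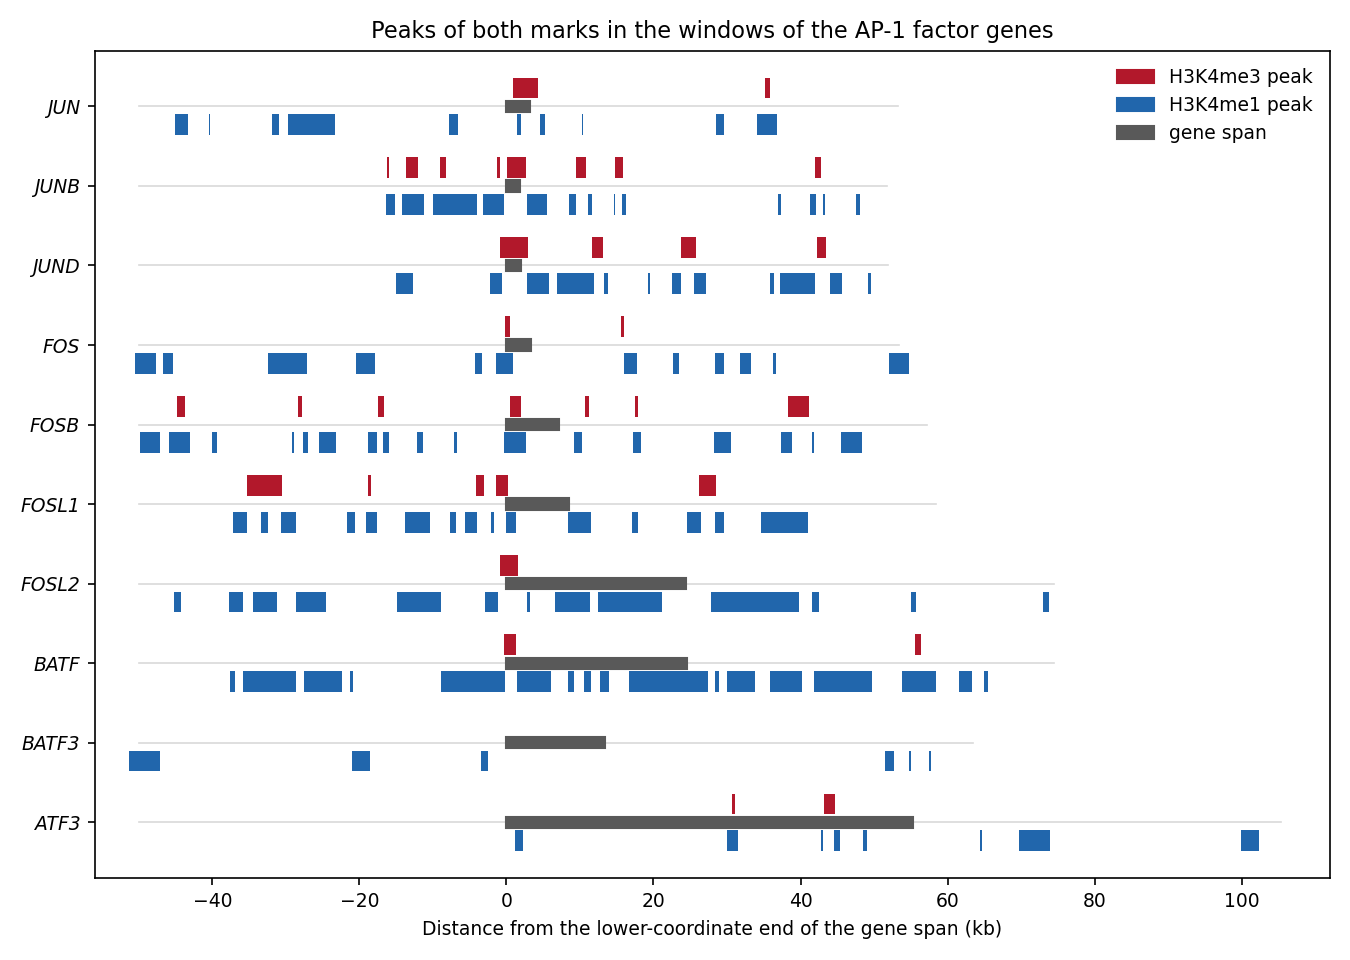
Peaks of H3K4me3 (red, above) and H3K4me1 (blue, below) in each window, by distance in kb from the lower-coordinate end of the gene span (grey bar); the thin line is the window. Of the 8 genes with a listed start, JUN and JUND are on the minus strand, so their starts are at the right end of the bar. FOSL1 and BATF3 have no listed start, so the map does not show which end is their start. H3K4me1 is dense along BATF and FOSL2, and BATF3 and its surroundings hold no H3K4me3.

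Around the starts the marks were arranged in different ways. JUN, JUND, FOSL2 and BATF had their start inside H3K4me3 and outside H3K4me1, with H3K4me1 beyond both edges for JUND, FOSL2 and BATF. At JUN it lay beyond the upstream edge only, beside the short peak inside. JUNB began 29 bp before its H3K4me3 peak, with H3K4me1 ending 287 bp upstream. FOS and FOSB had their start inside H3K4me1, as did 10.2% of the 15843 protein-coding genes with a listed start, while 49.3% had a start in H3K4me3. Of the 11 H3K4me3 peaks at members, 10 had H3K4me1 within 2 kb of both edges, against 59.3% of the list. Some of this H3K4me1 was weak. Its −log10 q was 1.39 and 1.71 beside the FOSL2 peak and 1.94 around the FOSB peak, below the list median of 2.27. Around the FOS peak it was 4.6. The count of 10 was not recomputed with stricter H3K4me1 lists.

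Nesting of H3K4me3 inside 1 H3K4me1 peak was seen for 4 of the 11 H3K4me3 peaks at members: those of FOS and FOSB, the sharp JUNB peak and the weak ATF3 peak. Over the windows it was 12 of 33, and in the list 9.78%. Of the 14 window peaks under 1 kb, 9 were nested, beside 26.3% of such peaks in the list, and of the 19 longer ones 3, beside 3.26%. The nested peaks were not spread evenly. Of the 12, 4 lay in HOOK2 upstream of JUNB and 3 in the window of FOSB. The 3 longer ones were 1559 bp in HOOK2, 1021 bp in ERCC1 and 1479 bp at FOSB, all on chromosome 19. Nesting was not recomputed with stricter peak lists. Among H3K4me3 peaks over a protein-coding start, as at FOS, 4.22% were nested.

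**Figure D3:**
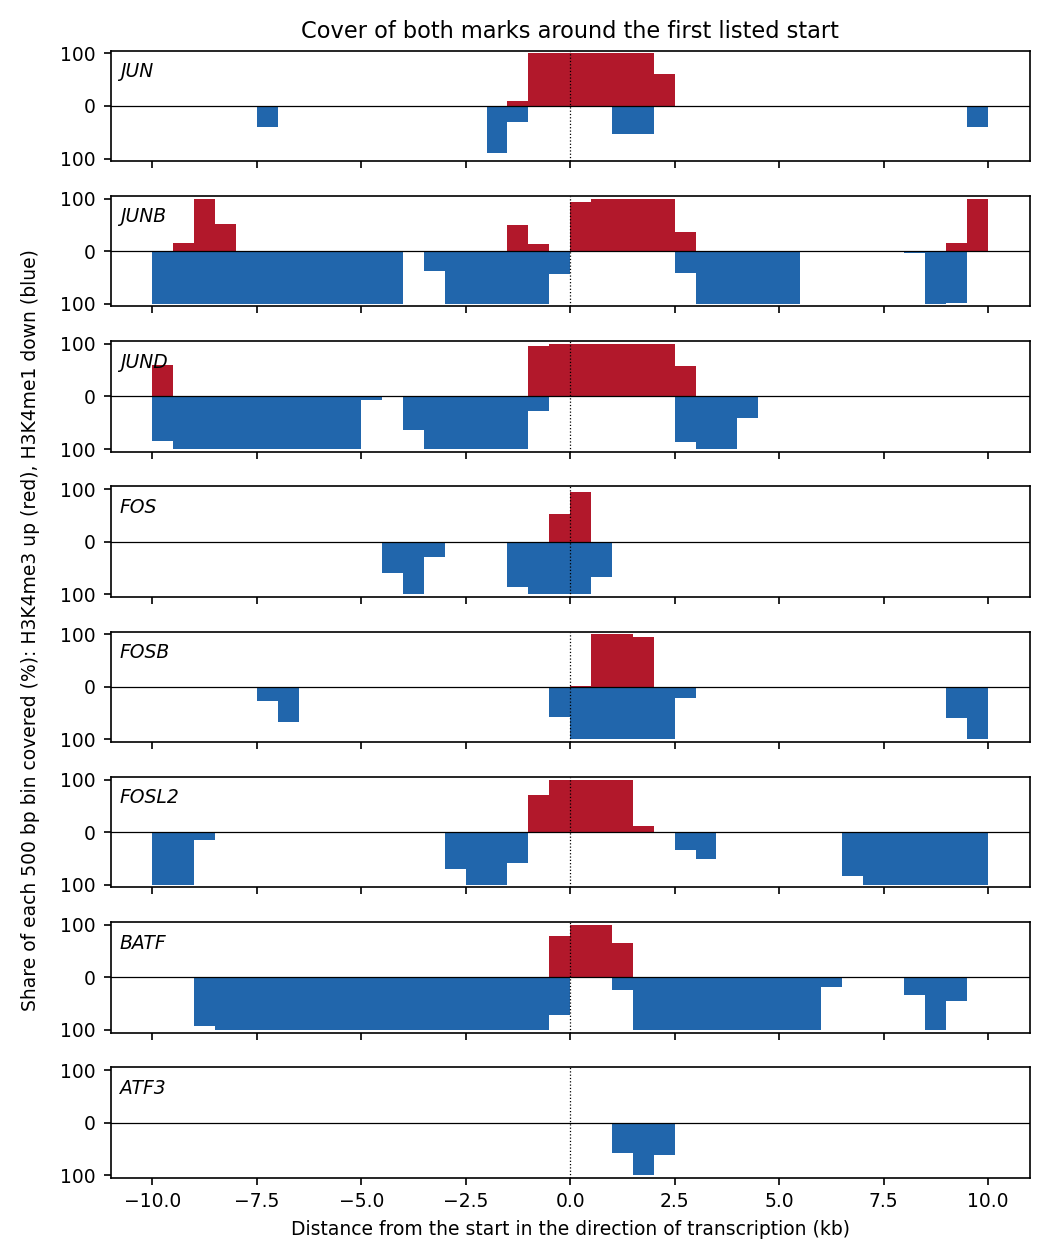
Percent of each 500 bp bin covered by H3K4me3 (red, upward) and H3K4me1 (blue, downward) from 10 kb before to 10 kb after the first listed start of the 8 genes with one, in the direction of transcription. H3K4me1 flanks a gap at JUND, FOSL2 and BATF and runs through the start at FOS and FOSB; at ATF3 the start holds neither mark.

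Length and fold of H3K4me3 had no single order in the family. The longest peaks, of JUND and JUN, had folds of 4.27 and 2.97, the sharp JUNB peak and the FOS peak 10.6 and 6.08. But the short ATF3 peak of 337 bp had the lowest fold, 1.62, and the long peaks of JUNB (2658 bp) and FOSL2 (2412 bp) had 4.79 and 4.87, above FOSB with 4.25, the longer ATF3 peak with 3.27 and BATF with 2.30. In broad mode the caller's fold is an average over the whole region. Of the 33 H3K4me3 peaks in the windows 13 were above the list's median fold, and of the 121 H3K4me1 peaks 50. The median lengths were 1146 bp for H3K4me3, against 1397 bp in the list, and 1261 bp for H3K4me1, against 1020 bp. By fold, then, neither set stood high in its list.

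**Figure D4:**
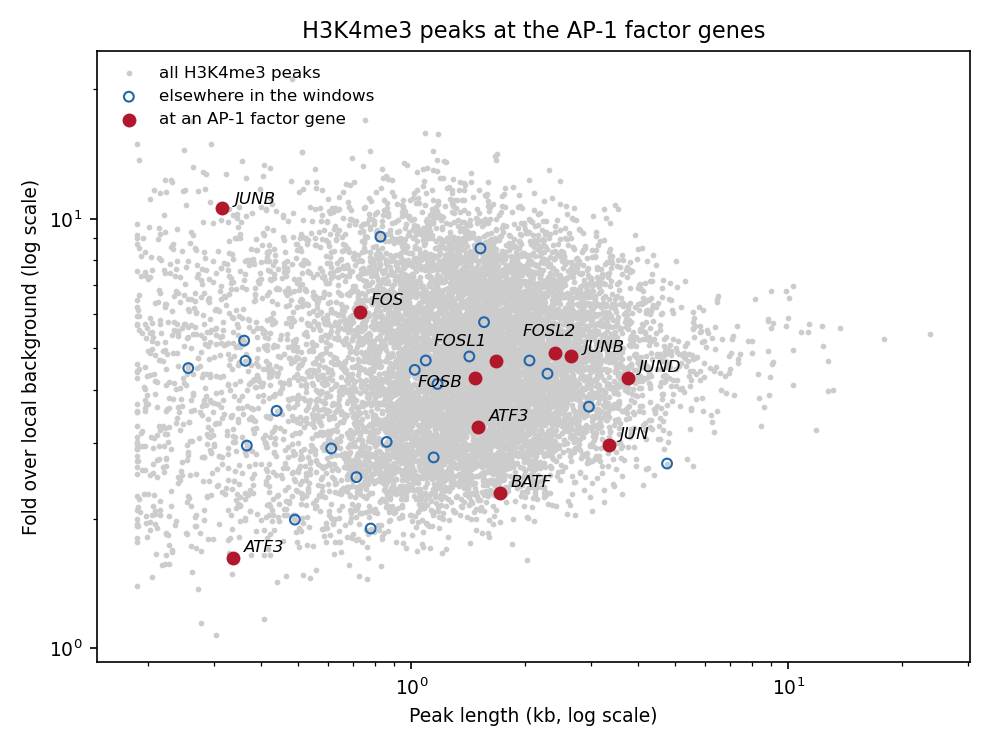
Length in kb and fold over the local background of every H3K4me3 peak (grey, both axes log), of the 11 peaks at a member (red, named) and of the 22 others in the windows (blue rings). The JUNB peak of 315 bp and the FOS peak lie short and high, JUND and JUN long and lower, and BATF and the ATF3 peak of 337 bp near the bottom.

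The distance at which H3K4me1 lay also differed. At BATF and FOSL2, 15.6 and 14.1 kb of it were inside the gene. JUNB and JUND had none in the gene itself, which H3K4me3 filled. At FOS 64.5% of the H3K4me1 in the window was 20 to 50 kb away, at FOSB 66.2%, at BATF3 70.3% and at JUN 83.9%, against 9.23% at JUNB. The sides of the gene were often unequal. The low-coordinate and the high-coordinate 50 kb were covered to 0% and 13.9% at ATF3, 8.1% and 37.6% at JUND, and 12.9% and 3.78% at BATF3. The low side had the more at JUN (21.1% and 9.32%), FOS (28.1% and 14.2%) and JUNB (26.2% and 13.9%) too, while FOSL1 was nearly even with 27.6% and 26.6%. Windows of gene-rich stretches also hold the marks of neighbours: 16 of the 33 H3K4me3 and 38 of the 121 H3K4me1 peaks were at the end of another gene and not at a member. Peaks at a member that also lay at the end of another gene are not in these counts. Among them are the H3K4me3 peaks that JUNB shares with HOOK2 and FOSL1 with CCDC85B, so the part of the neighbours is larger.

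**Figure D5:**
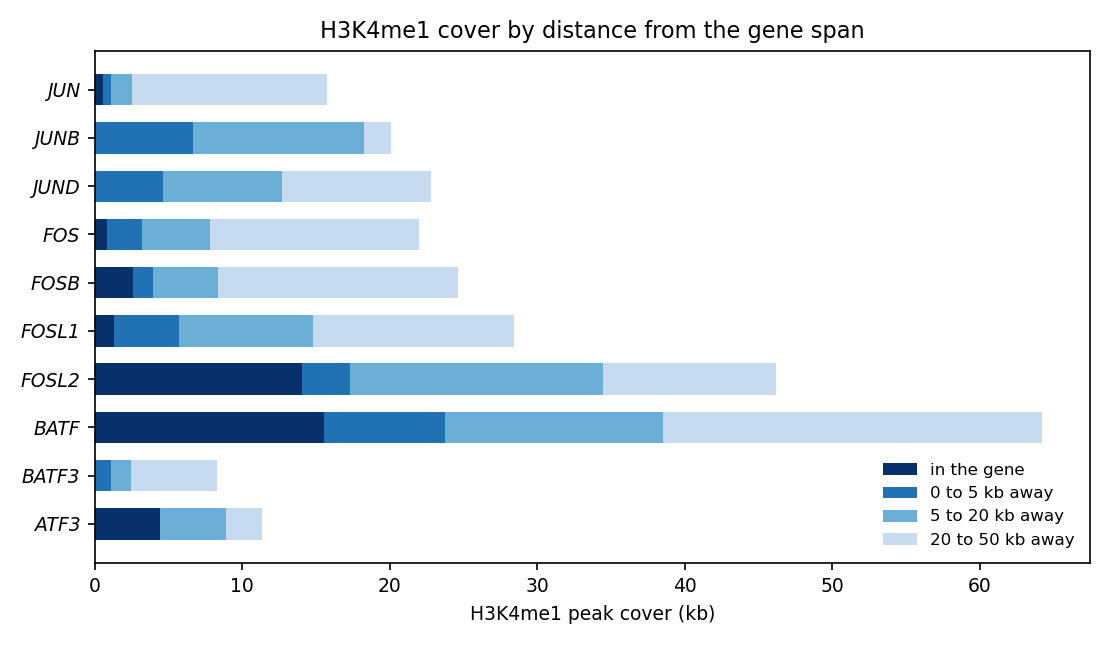
H3K4me1 cover in kb, stacked from inside the gene span (dark) to 20 to 50 kb away (pale), for the 10 members. BATF and FOSL2 hold the most in the gene and from 5 to 20 kb, while most of the cover at JUN, FOS, FOSB and BATF3 lies more than 20 kb away.

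Promoter composition was set beside the marks for the 8 genes with a listed start. The observed over expected CpG ratio was 1.11 in JUND, at percentile 97.1 of the 22199 windows, 0.957 in FOS, 0.820 in FOSL2, 0.770 in JUNB, 0.763 in FOSB and 0.619 in JUN. It was 0.443 in BATF and 0.239 and 0.0633 at the listed starts of ATF3. In groups of equal size by this ratio, H3K4me3 lay within 1 kb of the start for 8.97%, 44.0%, 69.2% and 77.7% of windows, from the lowest to the highest. Both listed ATF3 starts fell in the lowest group and BATF and JUN in the next. JUND and FOS, the longest and the shortest marked member, both fell in the highest group.

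Related genes of the network were looked at in the same way. Of 14 other leucine zipper genes that pair with or compete with AP-1 factors, 11 had H3K4me3 at the gene, beside 53.4% of protein-coding genes. H3K4me1 was at 12 of them, beside 63.4%, and their median load was 12.6%. The longest H3K4me3 was at NFE2L2 (3706 bp), a factor of the oxidative stress response, MAF (2696 bp) and MAFG (2469 bp), and the highest loads were at JDP2 (36.7%), a repressor between FOS and BATF on chromosome 14, NFE2L2 (28.0%) and MAFK (27.0%). BATF2 had neither mark at the gene, and NFE2 had H3K4me1 without H3K4me3. All 8 upstream kinases had both marks, beside 49.5% of protein-coding genes. Their median load was 8.05%, and MAPK8, the kinase JNK1, led with 2870 bp and a load of 35.1%. SRF and its 5 listed partners, which switch on FOS, all had both marks too, with 3042 bp of H3K4me3 at SRF and a median load of 6.29%. The member median of 21.8% was above that of these 3 lists and below that of the 9 T cell markers, 31.6%, and the lists were not tested against each other.

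Genes most like JUND and BATF were sought by the summed difference of percentiles over 4 measures, namely the bases of each mark at the gene and the percent of the window under each, from the 2 ChIP libraries. Nearest to JUND were DUSP6 (difference 6.69 percentile points), PRR12 (9.11) and ACTG1 (10.4). Nearest to BATF were NBEAL2 (2.16), with a load of 52.7%, ACSS1 (5.40) and CD5 (5.74), with loads of 30.2% and 31.6%.

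These counts depend on weak peaks. Where −log10 q had to reach 5, H3K4me1 lay at 0 of 10 members, beside 19.0% of protein-coding genes, and the median load was 1.06%, above 76.5% of genes. In the upper part of each list by q, H3K4me3 lay at 3 of 10 members, JUND, JUNB and FOS, beside 28.6% of genes, and H3K4me1 at 4 of 10, beside 43.0%.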

How the data were processed

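Peaks were called by the authors with MACS2 2.1.0.20150731 in broad mode on each ChIP library against 1 input library, with q of 0.05 for strong and 0.1 for broad regions, per the file headers. Coordinates are GRCh38, the build named in the submitters' processing notes. STAR appears in the paths of the alignments, per the file headers; its version is not given in the sources used here. Fragment lengths were 201 bp for H3K4me1 and 187 bp for H3K4me3, per the file headers. The deposited tables give each peak's length, a pileup (coverage signal), a fold over the local background (a ratio) and p and q as −log10, as the authors' caller wrote them. These values were used to describe, order and filter peaks, and medians of fold were compared only within the same list. The local background was computed here as pileup over fold.

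Gene spans came from RefSeq GRCh38.p14. An overlap of 1 bp counted. Gene percentiles give tied genes their middle rank, and peak percentiles the share of the list below. Cover around starts was taken in bins of 500 bp, finer than planned. TGACATCA and the split of nested peaks by length were chosen after the data were seen. The interval code was tested on simulated peaks. Tools were Python 3.11.15, numpy 2.4.6 and pandas 2.3.3. All members were named. Protein-coding neighbours were named if they had an end within 1 kb of an H3K4me3 peak, and related genes as the top of their list by either measure or without a mark, except 1 that is not reported here. Noncoding neighbours that met the same rule were left out of the text. The members and lists were chosen with earlier results of these data known. Alternatives were stricter peak lists, other windows, an overlap of 50% of the peak, the start alone, and distal H3K4me1 peaks.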

Additional observations from a re-analysis of the deposited data

How the results depend on the processing

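The counts, the median length (1779 bp) and the median load (21.8%) were recomputed under the alternatives, and values within 1.5 times were taken as unmoved, since 1 library gives no spread. Where −log10 q had to reach 5, members with H3K4me1 at the gene fell to 0 (all genes 19.0%) and the median load to 1.06%. With as many H3K4me1 as H3K4me3 peaks they were also 0 (all genes 19.8%) and 1.06%. The median load over all genes was 0% in both settings. In the upper part of each list, H3K4me3 was at 3 members and H3K4me1 at 4 (all genes 28.6% and 43.0%). There the median length was 0 bp and the median load 7.25%, beside a median load of 1.44% over all genes. With distal H3K4me1 peaks only the median load was 9.51%, and the value over all genes is not given for this setting. The load was then 0.299% at JUNB and 2.55% at JUND, while BATF with 28.7% and FOSL2 with 25.6% stayed first and second. Loads of 6 members moved by more than 1.5 times and those of 4 did not. The remaining alternatives left the counts and both medians within that range. BATF had the highest load in all settings but the q limit of 5, where JUNB led with 7.18% and BATF had 3.69%. With equal peak numbers BATF led with 10.0%. FOSL2, next to BATF at first, had 0.536% at the q limit of 5 and with equal peak numbers, and 6.10% in the upper part. JUND had the longest H3K4me3 in each setting that can rank it: 1 kb each side of the start is a window of 2001 bp, which JUN filled and JUND nearly did (1978 bp). No paired analysis was possible because each mark had 1 library. Depth sets which weak H3K4me1 peaks were called, so a gene without a peak is one where none was detectable here.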

Other observations

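Upstream of JUNB, the span of HOOK2 held 4 H3K4me3 peaks that each lay wholly inside an H3K4me1 peak, at offsets from the start of JUNB of -16204, -13636, -9074 and -1246 bp and with lengths of 256, 1559, 828 and 315 bp. A listed start of HOOK2 lay inside the peak of 1559 bp, at -13053 bp, and another just outside that of 256 bp, at -15934 bp. No start that the promoter table lists for another gene lay within 1 kb of the peaks of 828 and 315 bp, which had the highest folds of the H3K4me3 peaks in the 10 windows, 9.09 and 10.6.

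On chromosome 14, FOS and BATF lie 240 kb apart with JDP2 between them. The loads of BATF and JDP2 were 51.6% and 36.7%, and their windows overlap, while that of FOS was 21.2%.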
